A study of Homo sapiens with 6 samples.

Results

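The regions described here are the H3K4me2 and H3K4me3 peaks around BCR on chromosome 22 and around ABL1 on chromosome 9, in stretches that are amplified in the leukaemia line K562. They were chosen by position on build hg38: every listed peak on chromosome 22 from 16.8 to 23.3 Mb and, for H3K4me3, on chromosome 9 from 130.7 to 131.3 Mb. This gave 1152 of the 180871 peaks in 4 lists. The 6.5 Mb of chromosome 22 held 396 H3K4me2 peaks under shControl and 406 under shStau2, and 127 and 168 H3K4me3 peaks. The 0.6 Mb of chromosome 9 held 20 and 35 H3K4me3 peaks. H3K4me2 on chromosome 9 was not analysed here, since both lists stop before it. No peak crossed a border of either stretch. The remainder of chromosome 22, from 23.3 Mb to its end, served as the comparison, with 1266 and 1334 H3K4me2 peaks and 385 and 429 H3K4me3 peaks.

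K562 is a human line from chronic myeloid leukaemia in blast crisis. In the study it received a short hairpin RNA, either the control (shControl) or the one directed at the RNA-binding protein Staufen 2 (shStau2). Both marks were profiled by ChIP-seq in a single library for each hairpin, beside a single input of the same hairpin. All 6 libraries come from the same line, and the labels give neither the hairpin sequence nor the time after its delivery. There are no replicates, so no test between hairpins was possible, and every comparison describes these libraries. The lists hold no expression values, so the knockdown itself was not checked here.

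BCR and ABL1 are the partners of the Philadelphia translocation, which joins the front of BCR to the kinase part of ABL1 and drives chronic myeloid leukaemia. K562 carries many copies of the fusion and of the DNA around it. H3K4me3 marks the starts of active or poised genes, H3K4me2 extends further to their flanks and to enhancers. Extra copies of a region add reads both to a ChIP library and to its input, and a peak caller that divides by the local input is meant to remove them.

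Promoter sequences show what kind of gene start carried the mark. The 250 bases before the start of 3 genes with H3K4me3 in both lists and of 2 genes with no peak of either mark at the start are given 5′ to 3′ (RefSeq, GRCh38.p14, plus strand), with CG dinucleotides, the sites of DNA methylation and the hallmark of CpG islands, in capitals.
BCR, with both marks, chr22:23180259-23180508: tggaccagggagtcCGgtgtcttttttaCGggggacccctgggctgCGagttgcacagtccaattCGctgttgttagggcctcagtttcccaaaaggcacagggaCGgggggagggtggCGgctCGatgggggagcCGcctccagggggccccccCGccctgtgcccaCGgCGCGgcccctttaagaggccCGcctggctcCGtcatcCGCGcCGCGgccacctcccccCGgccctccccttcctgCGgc
ABL1, inner start, with H3K4me3, chr9:130835004-130835253: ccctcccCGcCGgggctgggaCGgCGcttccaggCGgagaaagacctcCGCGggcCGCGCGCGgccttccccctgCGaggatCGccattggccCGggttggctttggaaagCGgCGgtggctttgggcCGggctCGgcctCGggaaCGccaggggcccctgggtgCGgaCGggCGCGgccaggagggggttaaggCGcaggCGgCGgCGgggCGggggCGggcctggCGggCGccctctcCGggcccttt
CRKL, an adaptor of the BCR-ABL1 kinase, with both marks, chr22:20917157-20917406: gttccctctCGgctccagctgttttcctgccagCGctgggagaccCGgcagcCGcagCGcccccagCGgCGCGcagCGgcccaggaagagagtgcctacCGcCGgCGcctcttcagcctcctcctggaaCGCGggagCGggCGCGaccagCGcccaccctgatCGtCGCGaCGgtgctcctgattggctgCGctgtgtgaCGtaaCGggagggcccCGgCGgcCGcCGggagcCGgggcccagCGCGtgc
VPREB1, a surrogate light chain of pre-B cells, without a peak, chr22:22244536-22244785: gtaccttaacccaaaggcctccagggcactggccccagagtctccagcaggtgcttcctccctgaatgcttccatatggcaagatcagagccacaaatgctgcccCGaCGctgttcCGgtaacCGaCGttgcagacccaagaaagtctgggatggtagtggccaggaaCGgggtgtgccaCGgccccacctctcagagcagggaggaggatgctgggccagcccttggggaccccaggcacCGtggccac
SERPIND1, heparin cofactor of the liver, without a peak, chr22:20773863-20774112: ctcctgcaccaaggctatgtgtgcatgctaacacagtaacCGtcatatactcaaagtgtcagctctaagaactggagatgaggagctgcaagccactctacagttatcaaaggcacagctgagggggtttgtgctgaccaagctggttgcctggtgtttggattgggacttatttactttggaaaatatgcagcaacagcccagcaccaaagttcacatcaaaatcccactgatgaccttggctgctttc
The printed BCR, ABL1 and CRKL promoters hold 20, 33 and 32 CG dinucleotides, and those of VPREB1 and SERPIND1 hold 8 and 1. Of the 100 protein-coding genes in both stretches, 74 had a RefSeq promoter of 300 bases. The 60 with H3K4me3 in both lists held a median of 32 CG dinucleotides, against 5 in the 11 with none and 22 in all 15843 protein-coding promoters. The GC box GGGCGG, searched on both strands, was in 80% of the 60, in 36.4% of the 11 and in 58.5% of all promoters. AGATAA, a form of the site of the erythroid GATA factors, was in 1 of the 60 and 1 of the 11, against 7.57% of all promoters.

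RefSeq lists 13 microRNA genes with 19 mature forms in the chromosome 22 stretch. An H3K4me2 peak lay over 3 of them, MIR301B, MIR130B and MIR648, in both lists, and an H3K4me3 peak over MIR301B under shControl and over all 3 under shStau2. The mature strands of the neighbouring miR-301b and miR-130b, and of the widely studied miR-185 for contrast, are given 5′ to 3′ with the seed, bases 2 to 8, in capitals.
hsa-miR-301b-3p, chr22:21653025-21653047, plus strand: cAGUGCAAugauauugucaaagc
hsa-miR-130b-3p, chr22:21653354-21653375, plus strand: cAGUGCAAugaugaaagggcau
hsa-miR-185-5p, chr22:20033153-20033174, plus strand: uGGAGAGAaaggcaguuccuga
miR-301b-3p and miR-130b-3p share the seed AGUGCAA and lie within the same H3K4me2 peak in both lists. That peak was enriched 17.5-fold under shControl and 22.4-fold with shStau2. The H3K4me3 peak there was enriched 16.6-fold and 28.5-fold. Under shControl this peak ended 62 bases before the MIR130B hairpin, and under shStau2 it reached into it. For miR-185 the nearest H3K4me3 peak was 11000 bases from the hairpin under shControl and 10895 under shStau2.

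For each peak the authors' caller gives the pileup, the number of fragments stacked at the summit after scaling to the smaller library, and the fold enrichment, which is pileup plus 1 over local background plus 1. The local background, in fragments expected from the input, was recovered from those values. It was much higher in the chromosome 22 stretch than in the rest of the chromosome, in all 4 lists. Its median for H3K4me2 peaks was 6.0 against 1.4 under shControl and 5.75 against 1.48 under shStau2, a ratio of 4.30 and 3.90. For H3K4me3 peaks the medians were 5.40 against 1.4 and 5.24 against 1.48, a ratio of 3.86 and 3.55. In the chromosome 9 stretch the medians were 8.90 and 8.60, which is 6.36 and 5.83 times the rest of chromosome 22 and 4.94 and 5.37 times the rest of chromosome 9. Most peaks outside lay at the lowest background the caller allows, 1.39 and 1.48 under the respective hairpins: 55.6% to 68.7% of peaks in the rest of chromosome 22, against 0.595% to 1.57% inside. Each hairpin has its own input, and both gave the pattern. Both marks of a hairpin share that input, so agreement between marks is not a separate observation.

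**Figure D1:**
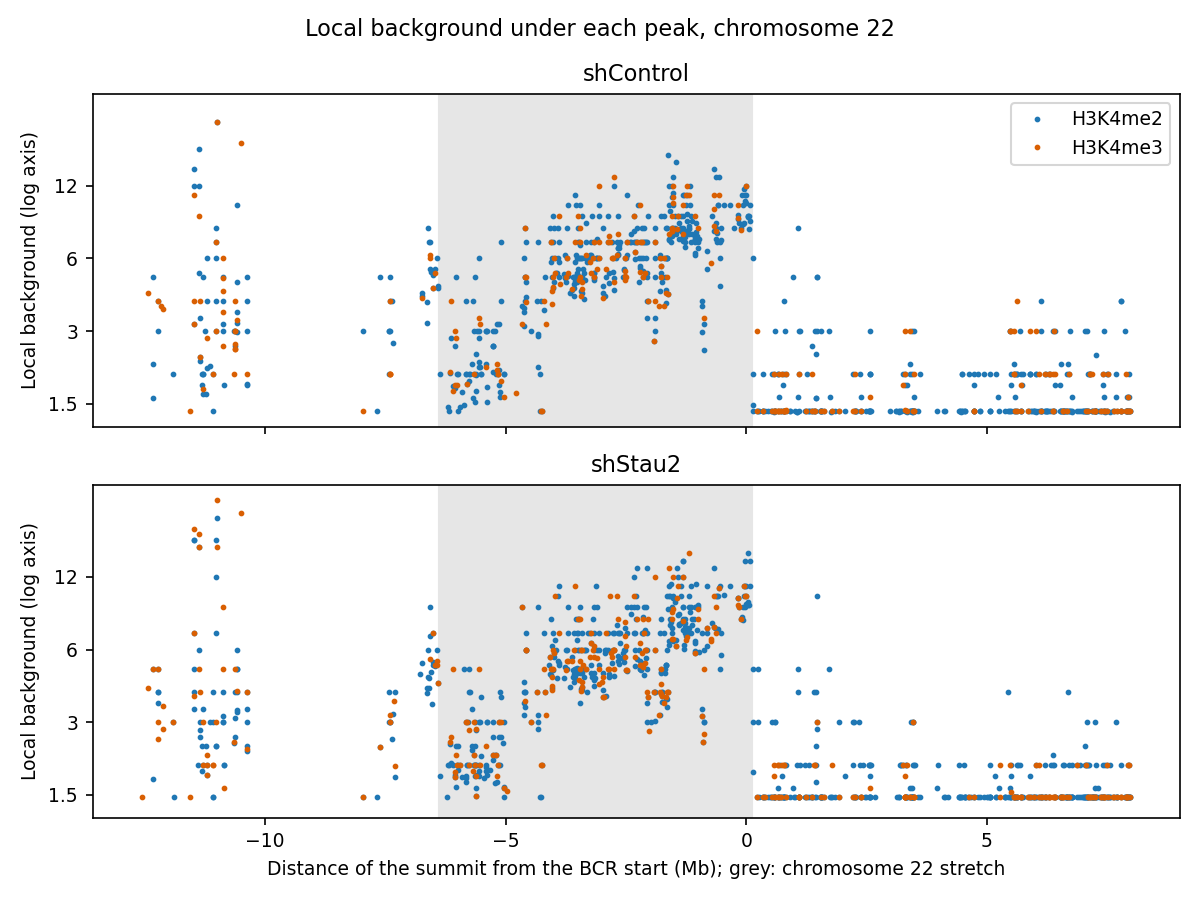
Local background under each peak (log axis) against the distance of its summit from the BCR start in Mb, for H3K4me2 (blue) and H3K4me3 (orange) under each hairpin, with the chromosome 22 stretch in grey. Values rise in steps toward BCR, to between 8.0 and 9.0 at the median past 21.6 Mb. Only the part of the rest of the chromosome nearest to BCR is drawn, right of the stretch. Over the whole rest, most but not all peaks lie at the floor of 1.39 or 1.48.

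The background was not raised over the whole stretch, and it rose toward BCR in steps whose positions were chosen after the values were seen. From 16.8 to 18.8 Mb the median was 2.1 to 2.20 in the 4 lists, and from 18.8 to 21.6 Mb it was 5.28 to 6.0. From 21.6 to 23.3 Mb it reached 8.0 and 8.22 for H3K4me2 and 9.0 and 8.03 for H3K4me3. The label of an amplified stretch is thus not borne out between 16.8 and 18.8 Mb, where the ratio to the rest of the chromosome was 1.42 to 1.58. That part holds IL17RA, an interleukin receptor subunit, the mitochondrial cell death gene BID, MICAL3, an actin-oxidising enzyme, and the interferon-induced USP18. The 3 H3K4me3 peaks nearest before the border at 16.8 Mb had backgrounds of 4.52 to 6.20 under shControl and 4.38 to 5.40 under shStau2. The first 3 inside had 1.70 to 4.0 and 2.48 to 5.0.

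Between 16.8 and 18.8 Mb the background also rose and then fell again. Around TMEM191B and RIMBP3, from 18.5 to 18.7 Mb, H3K4me3 backgrounds were 3.20 to 8.0 under shControl and 3.68 to 9.0 under shStau2, and those of H3K4me2 3.14 to 8.0 and 3.20 to 9.0. These genes belong to families of near-identical copies. At DGCR6 and PRODH, which breaks down proline, the H3K4me3 background was back at 1.39 and 2.00. H3K4me2 there had 1.39 to 4.0 under shControl and 1.48 to 2.00 under shStau2. The 4.0, at chr22:18906306-18907310 at DGCR6, was above the shControl value of 3.66 at the next rise.

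The lower step was placed at a further rise, between PRODH and DGCR2. The H3K4me2 peak at chr22:18935903-18936383 under shControl had a background of 1.39, and 2.00 under shStau2. The next peak, at chr22:18969998-18971316, had 3.66 and 7.0. H3K4me3 at the same places, on the same inputs, gave 1.39 and 2.00, then 4.0 and 5.0. A further step lay within UBE2L3, a ubiquitin-conjugating enzyme, where the H3K4me3 background was 4.26 and 4.02 at its start and 7.60 and 13 at the interior peak that begins at 21567393 under shControl. Over the peaks from 22256924 to 22300132, in the immunoglobulin lambda locus around VPREB1, backgrounds dropped back to between 2.48 and 7.0. A strong H3K4me3 peak there, chr22:22297032-22299058 under shControl, had a background of 3.40 and a fold enrichment of 28.5, and 5.0 and 36.1 under shStau2.

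The highest step ended inside BCR, a GTPase-regulating protein and serine/threonine kinase. Its start carried a broad H3K4me2 peak, chr22:23178976-23184741 under shControl, with a background of 12, a pileup of 225 and a fold enrichment of 17.4. Under shStau2 these values were 9.22, 252 and 24.8. The H3K4me3 peak at the start had a background of 12, a pileup of 209 and a fold enrichment of 16.2 under shControl, and 10, 299 and 27.3 under shStau2. H3K4me2 continued into the gene, with 7 further peaks with backgrounds from 7.90 to 10 under shControl and from 9.16 to 15 under shStau2. The last of these lay 69.6 kb from the start, with backgrounds of 8.58 and 14. The next H3K4me2 peak in the gene, 130 kb from the start, had backgrounds of 1.48 and 1.86. Its pileup was 13.6 and 18.5, against 92.6 and 103 at the last of the 7 peaks. The drop was not complete: the peak 136 kb from the start had backgrounds of 2.00 and 3.0. Past the gene's end, the peak at chr22:23325696-23326386 under shControl had 6.0, and 5.0 under shStau2. No H3K4me3 peak was listed in BCR beyond its start, so this edge rests on H3K4me2.

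ABL1, the tyrosine kinase of the fusion, showed the mirrored pattern in H3K4me3. The outer annotated start, at 130713043, had a strong peak with a low background of 1.68 under shControl and 2.00 under shStau2. Its pileup was 82.7 and 169, and its fold enrichment 31.2 and 56.6. The inner start, 122 kb downstream, had a background of 9.30 and 9.12, a pileup of 57.6 and 86.3 and a fold enrichment of only 5.69 and 8.62. The background thus rose between the 2 starts, with no peak listed in between from 130716433 to 130834708. At the far end FAM78A had a background of 11 under shControl and 5.20 under shStau2, and the next peak toward PLPP7 had 3.0 and 2.44.

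**Figure D2:**
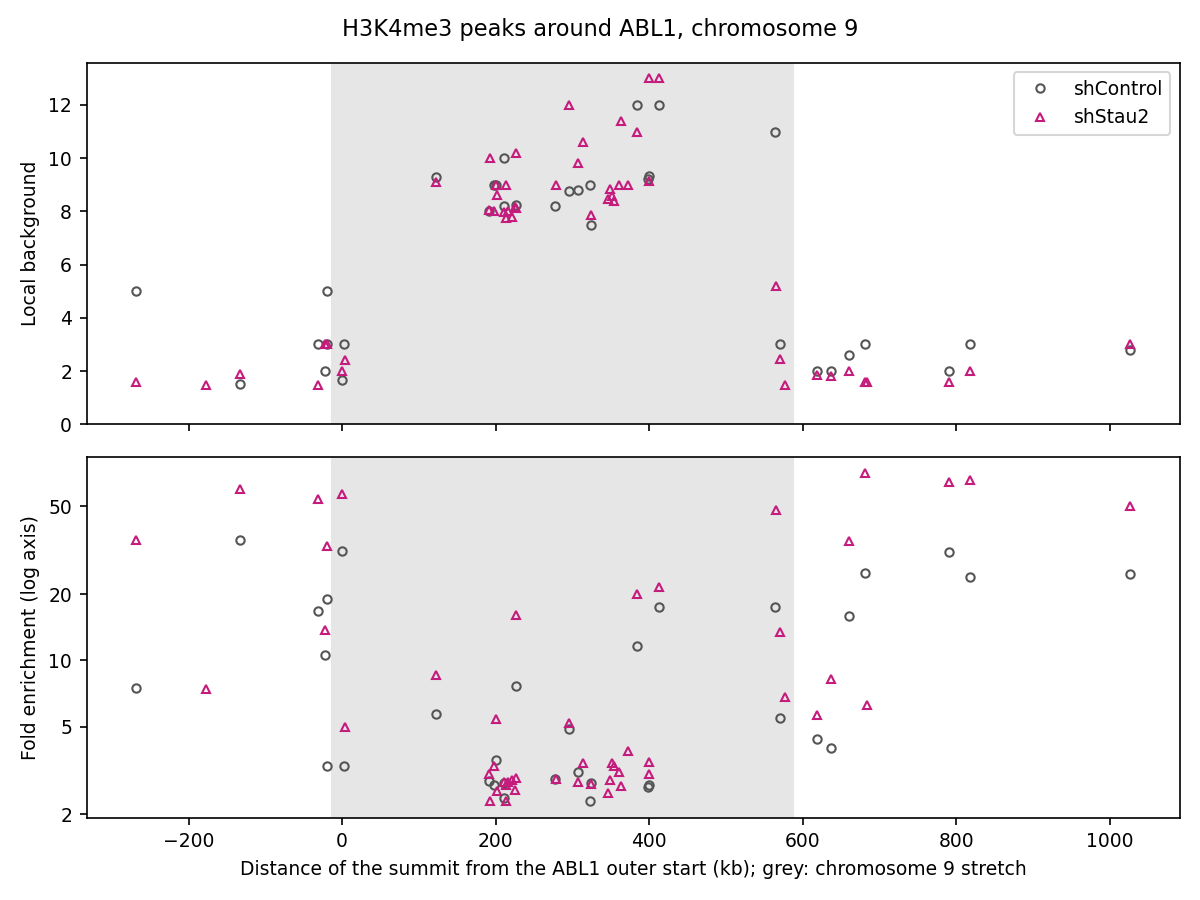
Local background (upper panel) and fold enrichment (lower panel, log axis) of H3K4me3 peaks against the distance of the summit from the outer ABL1 start in kb, under shControl (circles) and shStau2 (triangles), with the chromosome 9 stretch in grey. The outer start has a background of 1.68 and 2.00, the inner start 9.30 and 9.12.

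The caller takes the largest of several input windows. The lists do not name the window, so it was inferred from the spacing of the recovered values, and some peaks may be misassigned. Over the 3 sub-stretches, with borders chosen from these same values, peaks assigned to the widest window, of 10 kb, gave the same order of medians. Their median H3K4me2 background under shControl was 1.80 from 16.8 Mb, 4.88 from 18.8 Mb and 7.57 from 21.6 Mb, with 24, 43 and 32 peaks. Under shStau2 it was 1.85, 4.78 and 7.46. The 10 kb median over the whole stretch was also divided by the median of all peaks in the rest of the chromosome. This gave ratios of 3.51 and 3.27 for H3K4me2 and 3.19 and 3.0 for H3K4me3, a choice made after the data were seen. The window was not held the same on both sides. In the rest, 7 and 4 H3K4me2 peaks and 4 and 3 H3K4me3 peaks had a 10 kb background above the lowest value.

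Pileup was higher in the chromosome 22 stretch in 3 of the 4 lists, by a smaller factor than the background. Its median in the chromosome 22 stretch was 43.4 against 17.2 for H3K4me2 under shControl and 42.0 against 18.5 under shStau2, a ratio of 2.52 and 2.27. For H3K4me3 under shControl it was 83.9 against 41.6, a ratio of 2.02, and under shStau2 59.4 against 65.9, a ratio of 0.902. That last ratio was 1.96 among peaks with a −log10 q of 10 or more and 1.29 against the other autosomes. It was 1.07 without the immunoglobulin lambda stretch and 1.20 from the lower step onward, a choice made after the data were seen. With the borders 0.5 Mb inward it was 0.908, so its direction depended on the peaks, borders and reference used. In the chromosome 9 stretch, where the background ratio was highest, the median pileup was lower than outside, 0.640 and 0.448 times that of the rest of chromosome 22 and 0.649 and 0.656 times that of the rest of chromosome 9. At gene starts, a choice made after the data were seen, the 4 ratios were 4.16, 3.82, 3.11 and 2.25.

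**Figure D3:**
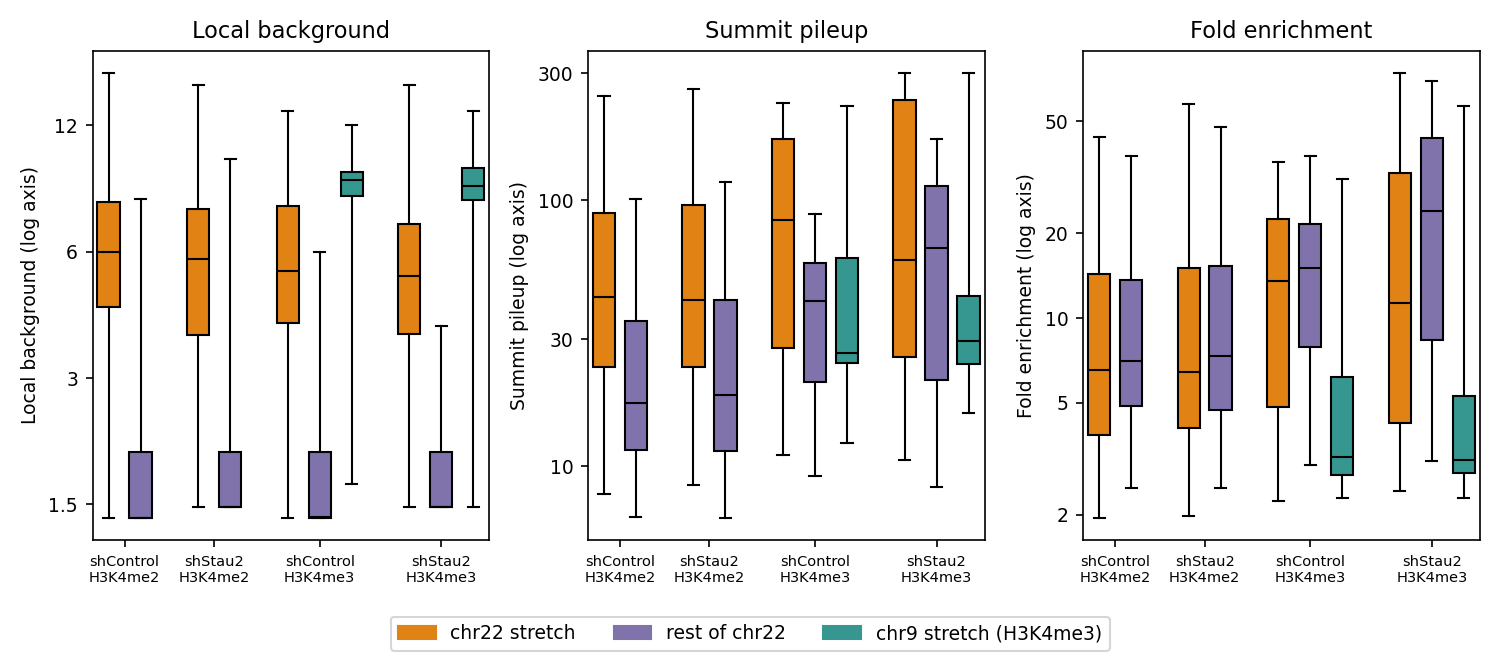
Local background, summit pileup and fold enrichment (all log axes) of the peaks in the chromosome 22 stretch (orange), the rest of chromosome 22 (purple) and, for H3K4me3, the chromosome 9 stretch (green). Boxes span the quartiles with the median, whiskers the full range. Median background is 5.24 to 6.0 in orange against 1.4 to 1.48 in purple, while fold enrichment overlaps.

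Fold enrichment, which carries the division by input, was close to that of the rest of the chromosome or lower. The median for H3K4me2 was 6.53 against 7.01 under shControl and 6.41 against 7.31 under shStau2, a ratio of 0.932 and 0.877. For H3K4me3 it was 13.5 against 15 and 11.3 against 24.0, a ratio of 0.901 and 0.470. In the chromosome 9 stretch the median was 3.21 and 3.13, a ratio of 0.213 and 0.130. At gene starts the chromosome 22 medians were 18.4 and 24.6 for H3K4me2, against 14.5 and 17.4, and 19.2 and 31.4 for H3K4me3, against 18.6 and 37.2. The H3K4me2 order therefore turned at gene starts, and the H3K4me3 ratio under shStau2 was 0.845 there. It was 0.828 among peaks with a −log10 q of 10 or more.

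Weak peaks made up a larger share inside than outside. H3K4me2 peaks of fold enrichment under 3 were 10.9% and 6.65% of the chromosome 22 stretch under shControl and shStau2, against 1.66% and 1.87% of the rest. Among H3K4me3 peaks they were 7 of 127 (5.51%) and 9 of 168 (5.36%), against 0 of 385 and 0 of 429. The lowest H3K4me3 pileups listed in the rest were 9.19 and 8.33. At the lowest background, where 55.6% and 66.7% of those peaks lay, such pileups give folds above 3. The contrast is therefore not separate from the background given above. The chromosome 9 stretch had 9 of 20 (45.0%, 95% interval 23.1% to 68.5%) and 15 of 35 (42.9%, 26.3% to 60.6%). These exact Clopper-Pearson intervals cover counting error only.

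Peaks were also denser. Per Mb there were 60.9 and 62.5 H3K4me2 peaks in the chromosome 22 stretch, against 46.0 and 48.5 in the rest, a ratio of 1.32 and 1.29. H3K4me3 gave 19.5 and 25.8 against 14 and 15.6, a ratio of 1.4 and 1.66. Chromosome 9 had 33.3 and 58.3 H3K4me3 peaks per Mb, or 2.38 and 3.74 times the rest of chromosome 22. Against all other fully covered autosomes the chromosome 22 ratios were 2.04, 1.92, 2.66 and 2.84. The gain lay away from gene starts: these took 52.8% and 39.9% of H3K4me3 peaks in the stretch, against 71.4% and 62.5% in the rest. Intergenic H3K4me3 peaks made up 33.1% and 38.1%, against 14.8% and 18.4%. Of the H3K4me3 peaks in the stretch 93.7% and 88.7% overlapped an H3K4me2 peak of the same hairpin, against 99.7% and 99.3% in the rest.

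Width followed the same split. Median H3K4me2 width was 772 bases against 664 under shControl and 770 against 691 under shStau2. For H3K4me3 it was 1141 against 985 and 769 against 1214. The last ratio, 0.633, turned to 1.11 among peaks with a −log10 q of 10 or more. The H3K4me2 ratio under shControl, 1.16, turned to 0.947 when peaks within 1 kb were merged.

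Pileup in these stretches ran up against a limit that few other peaks reached. The caller kept 1 tag per position, so the scaled pileup cannot exceed 287 and 285 for H3K4me2 and 245 and 303 for H3K4me3, computed from the fragment length and the tag totals. Under shStau2, 41 of the 168 H3K4me3 peaks in the chromosome 22 stretch lay at 80% of that ceiling or above, and 2 on chromosome 9, of 67 in the whole list. Under shControl there were 8 and 2 of 17. H3K4me2 had 4 of 8 under shControl and 21 of 25 under shStau2. In the rest of chromosome 22 there was none in any of the 4 lists. The largest H3K4me3 pileup under shStau2, 300, was reached both at NUP214, a nuclear pore protein, and at YDJC, and is 99.2% of the ceiling. BCR followed at 299.

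Genes of the stretches were mostly marked at their starts, and the state was the same under both hairpins for nearly all of them. A gene was counted as marked where a peak lay within 1 kb of its start, or of either end for the 26 genes whose start is not known. On chromosome 22, 68 of 90 protein-coding genes (75.6%) had H3K4me3 in both lists, against 68.5% in the rest of the chromosome and 61.5% of all 19974 genes, while 3 had it under shStau2 alone, none under shControl alone and 19 in neither. Over all genes 3.74% had it under shStau2 alone and 0.0801% under shControl alone. H3K4me2 was listed at 70 in both (77.8%), against 77.5% in the rest of the chromosome and 70.6% of all 13972 genes, at 2 under shStau2 alone and at 18 in neither, beside 2.28% of all genes under shStau2 alone and 0.658% under shControl alone. On chromosome 9, 8 of 10 genes had H3K4me3 in both lists, PLPP7 under shStau2 alone and QRFP, a hypothalamic neuropeptide, in neither. These lists of genes hold several in near-identical copies (TMEM191B and TMEM191C, the RIMBP3, FAM246 and GGTLC families, DGCR6 and DGCR6L), whose values are uncertain because reads can align to either copy.

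The genes marked under shStau2 alone had weak peaks. SCARF2, a scavenger receptor, was set apart only by the 1 kb window: its H3K4me3 peak, with a fold enrichment of 4.04, overlapped a narrower shControl peak of 4.18 that ended outside the window. With windows of 0.5 or 2.5 kb the count on chromosome 22 was 2. The other 5 overlapped no shControl peak. For H3K4me3 the amino acid transporter family member SLC7A4 had a fold enrichment of 3.16, the ciliary gene RSPH14 4.56 and the lipid phosphatase family member PLPP7 6.82. For H3K4me2 the chromatin remodelling protein CECR2 had 5.70 and the mitochondrial carrier SLC25A18 6.98. The backgrounds under these peaks ran from 1.48 at PLPP7 to 11 at RSPH14.

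Counts in the gene lists that follow stand beside 61.5% of all genes and 75.6% of genes in the chromosome 22 stretch with H3K4me3 in both lists, and no test of a list was made. Of BCR-ABL1 signalling and its kinases all 8 had H3K4me3 in both lists, and all 7 on chromosome 22 had H3K4me2, which 70.6% of all genes had. CRKL had an H3K4me3 fold enrichment of 25.8 under shControl and 32.6 under shStau2. GNAZ, a G protein alpha subunit, had 17.6 and 27.1, LZTR1, which targets RAS proteins for ubiquitination, 16.6 and 37.0, and PI4KA, a phosphatidylinositol kinase, 17.6 and 25.6. The phosphatase PPM1F had 12.2 and 32.6, with its background at 12 under shControl and 6.76 under shStau2. Over the 8 genes the median ratio of shStau2 to shControl was 1.53, against 1.64 over the chromosome 22 stretch and 2.02 over all genes marked in both lists.

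Of the genes of chromatin and RNA 10 of 11 were marked, CECR2 being the exception for H3K4me3, and EXOSC2 having its start just outside the chromosome 9 stretch. DGCR8, the partner of DROSHA in microRNA processing, had 29.0 and 42.3. The histone chaperone HIRA had 28.8 and 46.2 from a peak it shares with MRPL40, and HIC2, a zinc finger repressor, 29.4 and 53.2. NUP214 had 17.5 and 21.5 on backgrounds of 12 and 13.

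Of cell cycle, transport and protein turnover all 9 genes had H3K4me3 in both lists, among them CDC45, a helicase factor of DNA replication that shares a peak with UFD1, at 27.7 and 42.5. Among mitochondrial and metabolic genes 8 of 9 had H3K4me3, all but SLC25A18. The cell death genes BID and BCL2L13, with low backgrounds, stood at 33.9 and 21.4 under shControl and at 60.8 and 55.6 under shStau2. AIFM3, with backgrounds of 5.26 and 5.20, had 6.03 and 13.6.

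Among blood and immune genes H3K4me3 was listed at 4 of 9: IL17RA (31.9 and 31.5), USP18 (12.6 and 27.5), SEPTIN5 (21.6 and 42.3) and GP1BB, a platelet receptor subunit (15.2 and 25.6). It was in neither list at XKR3, ADA2, SERPIND1, VPREB1 and IGLL5. XKR3 had H3K4me2, at 7.03 and 9.0. Developmental, neural and other tissue genes had H3K4me3 in both lists in 8 of 16 cases, among them TBX1, a heart and pharyngeal arch regulator, at 12.7 and 24.3, and RTN4R, the Nogo receptor, at 13.3 and 17.3. CLDN5, a tight junction protein of endothelium, and TUBA8, a tubulin, had neither mark. PRAME, a cancer-testis antigen, had H3K4me3 at 21.9 and 28.7 and H3K4me2 at 20.3 and 19.4.

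The highest folds at gene starts came with backgrounds of 1.68 to 5.0. By H3K4me3 under shControl on chromosome 22 they were at PEX26, a peroxisome protein (34.4 on a background of 1.86), BID (33.9 on 2.14), IL17RA (31.9 on 1.70) and ESS2 (31.3 on 4.4). Next came the peak at the outer ABL1 start, at 31.2 on 1.68. The gene start nearest to its summit was that of LOC128092248, 410 bases away. By H3K4me2 the highest folds were at MICAL3 (43.9 on 2.00), RTN4R (37.0 on 5.0), the peak shared by UBE2L3 and RIMBP3C (36.6 on 4.26) and RIMBP3B (36.1 on 4.4). The highest backgrounds, 15 to 16, were under H3K4me2 peaks inside UBE2L3 (fold enrichment 2.97) and YPEL1 (8.54) under shControl and inside BCR (8.21) under shStau2, and under the H3K4me3 peak of TOP3B, a topoisomerase, under shStau2 (18.3). The next value, 14, was shared by several peaks.

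The inner part of the chromosome 9 stretch held many weak peaks. FIBCD1, a chitin-binding membrane protein, had a start peak of 7.66 and 16, and LAMC3, a laminin chain, 4.86 and 5.20. Gene interiors of the stretch held 11 H3K4me3 peaks under shControl, 5 of them in FIBCD1 and 3 in LAMC3, and 24 under shStau2, 11 of them in FIBCD1 and 10 in LAMC3. Their fold enrichments ran from 2.30 to 3.53 and from 2.29 to 5.40, with median fold enrichments of 2.77 and 2.87 and median backgrounds of 9.0 and 8.59. AIF1L, an actin-binding protein, had 11.6 and 20. FAM78A had 17.4 and 48.0 as its background went from 11 to 5.20, while its pileup went from 208 to 297.

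**Figure D4:**
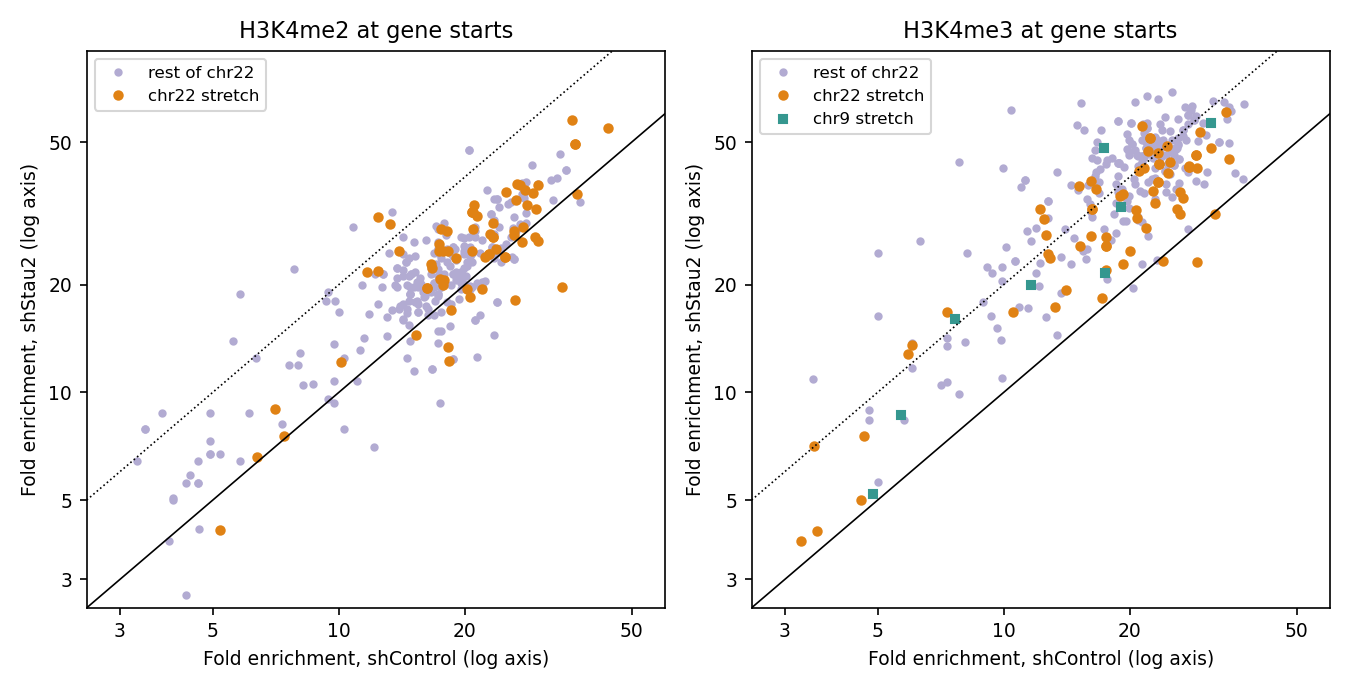
Fold enrichment at gene starts under shControl and shStau2 (both log axes) for H3K4me2 and H3K4me3, with genes of the chromosome 22 stretch (orange), the chromosome 9 stretch (green) and the rest of chromosome 22 (light purple). The solid line marks equal values and the dotted line a ratio of 2. For H3K4me3 the median ratio is 1.64 in orange and 2.03 in light purple.

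Between hairpins H3K4me3 was higher under shStau2 in the stretch, by less than elsewhere. Over 102 peaks matched 1 to 1 in the chromosome 22 stretch the median ratio of fold enrichment, shStau2 over shControl, was 1.61, against 1.95 over 275 matched peaks in the rest and 1.95 over all 15552. The ratio was above 1 in 94 of the 102 (92.2%), against 99.6% in the rest and 95.8% of all. It was 2 or more in 24 of the 102 (23.5%), against 46.2% of all matched peaks, and it was lower by that factor in none, against 0.0579% of all. On chromosome 9 the median was 1.23 over 13 matched peaks. At gene starts the medians were 1.64 in the chromosome 22 stretch, 2.03 in the rest and 2.02 over all genes. H3K4me2 had ratios nearer to 1, with medians of 1.16 over 307 matched peaks, 1.15 over 861 in the rest and 1.17 over all 37746, and 11 of 307 (3.58%) at 2 or more, against 6.29% of all. In 3 of 307 it was lower by that factor, against 0.986% of all.

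Whether the pileup ceiling or the weak peaks have a part in that smaller H3K4me3 ratio was not tested. With a −log10 q of 10 or more the median ratio in the chromosome 22 stretch was 1.67 over 87 matched peaks. Among matched peaks in the stretch with a shControl pileup at 60% of the ceiling or more, the median ratio was 1.63 for fold enrichment and 1.51 for pileup (40 peaks). Peaks under 20% of the ceiling gave 1.58 (34 peaks), from 20% to 40% 1.91 (19 peaks) and from 40% to 60% 1.60 (9 peaks). In the rest of the chromosome the first 2 classes gave 1.90 and 2.04, and no peak reached the higher classes. Over all matched peaks the 4 classes gave 1.89, 2.01, 1.88 and 1.63, and 40 of the 56 peaks in the top class were those of the stretch.

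**Figure D5:**
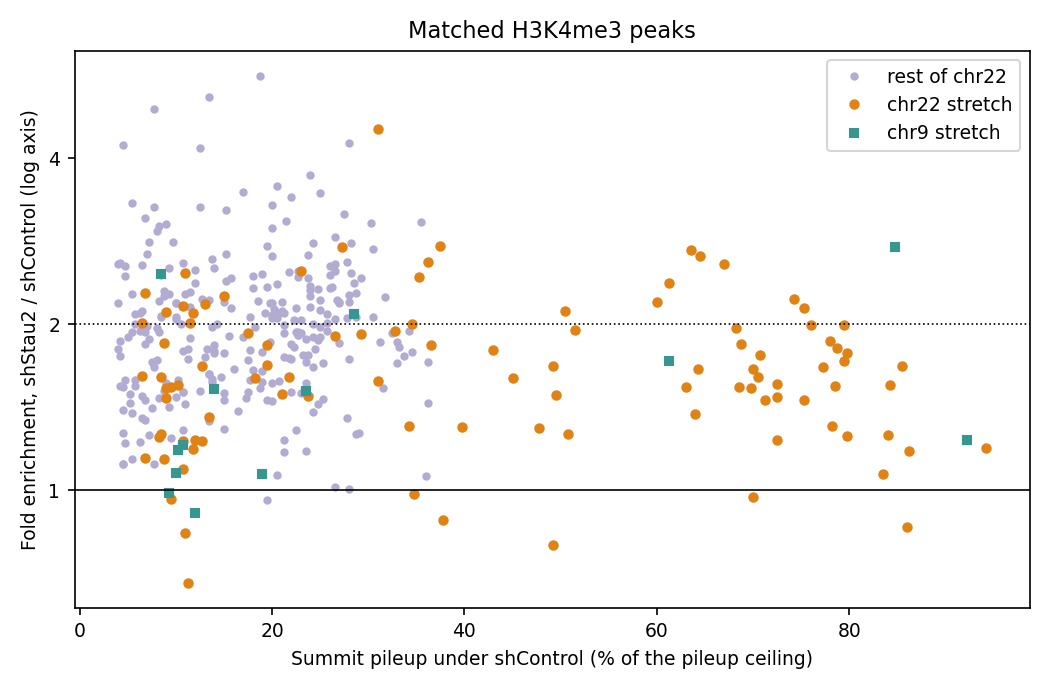
Ratio of H3K4me3 fold enrichment, shStau2 over shControl (log axis), against shControl pileup as a percentage of the pileup ceiling, for matched peaks in the chromosome 22 stretch (orange), the chromosome 9 stretch (green) and the rest of chromosome 22 (light purple). The dotted line marks a ratio of 2. The stretch reaches 94.2% of the ceiling under shControl and the rest 36.2%.

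Matched peaks with extreme ratios differed in background as well as in pileup. The highest H3K4me3 ratio, 4.53 within SCARF2, came with a background of 13 under shControl and 6.0 under shStau2, while pileup went from 75.9 to 173. The lowest, 0.681 within LOC124905153, came with backgrounds of 7.0 and 10 and pileups of 27.6 and 25.7. Others among the 5 highest lay near DGCR6L (2.78), GAB4 (2.77), FAM78A (2.76) and PPIL2 (2.73), and among the 5 lowest at TMEM191B (0.798), near FAM246A (0.839), within UBE2L3 (0.860) and within CLTCL1 (0.882). For H3K4me2 the lowest ratio, 0.354 near CECR2, had pileups of 20.1 and 17.1 on backgrounds of 1.48 and 5.0. The highest, 3.70 near RTN4R, had backgrounds of 8.0 and 3.80. The other H3K4me2 extremes ran from 2.34 to 2.48 and from 0.461 to 0.528.

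Peaks listed under a single hairpin were weak. For H3K4me2, 32 of 396 shControl peaks in the stretch (8.08%, 95% interval 5.59% to 11.2%) overlapped no shStau2 peak, against 9.56% in the rest and 11.2% of all. Of the shStau2 peaks 54 of 406 (13.3%, 10.1% to 17%) overlapped no shControl peak, against 19.7% in the rest and 23.4% of all. For H3K4me3 it was 3 of 127 shControl peaks (2.36%, 0.490% to 6.75%), against 0.260% in the rest and 1.07% of all, and 54 of 168 shStau2 peaks (32.1%, 25.2% to 39.8%), against 23.5% in the rest and 32.0% of all. On chromosome 9 it was 3 of 20 and 19 of 35 (54.3%, 36.7% to 71.2%). The 54 shStau2 H3K4me3 peaks had a median fold enrichment of 3.95 and a median width of 293 bases, against 25.6 and 1656 for those shared. Only 6 of them lay at a gene start. The share listed under shStau2 alone was 14.1% of 128 peaks with equal numbers of peaks in both lists. Fold thresholds of 3.97 for shControl and 7.73 for shStau2, set apart by the overall ratio of the matched peaks, left 1.11% of 90 peaks. The 54 peaks reached at most 8.53, so that cut was bound to take out nearly all of them.

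The cells' identity was checked on the same marks. H3K4me3 was listed at all 9 K562 markers, among them GATA1 and TAL1, under both hairpins. It was at none of 8 markers of other blood cells, such as MPO, and at 1 of 4 markers of other tissues, COL1A1. H3K4me2 was listed at all 6 K562 markers on the chromosomes it covers, but also at 3 of 7 markers of other blood cells, CD3E, CD3D and CD79A, with fold enrichments of 5.90 to 10.4, and at COL1A1. Either gene end was used for markers whose start is not known. The CD3E peak under shControl, chr11:118316354-118317234, lay past the gene's higher end, 118316173, so it may not mark a start. Library depth after duplicate removal was 26221869 to 30744332 tags for the ChIP libraries and 18826946 and 19921064 for the inputs.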

How the data were processed

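ChIP-seq of H3K4me2 and H3K4me3 in K562 was analysed from 4 deposited peak lists, with groups taken from the sample titles. Alignment to hg38 used Bowtie2, of a version not given in the sources used here, and peak calling used MACS2, per the submitters' processing notes. Version 2.1.2 was run, per the file headers, on each library against the input of its hairpin, with a q-value threshold of 0.05, a fixed fragment length of 200 bases, 1 tag kept per position and the larger data set scaled to the smaller. The authors' lists give the summit pileup as a signal, the fold enrichment as a ratio with a pseudocount of 1 on both sides, and −log10 p and q values, as deposited.

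Local background was recovered as pileup plus 1 divided by fold enrichment, minus 1. It was checked through the Poisson tail: the deposited −log10 p was met within 0.01 for 99.4% to 100% of peaks with a value under 250. Peaks overlapping by 1 base were called shared. Peaks that had 1 partner each in the other hairpin's list were matched. Medians carry no test. Exact Clopper-Pearson 95% intervals of shares were computed with scipy 1.17.1. They cover counting error only, because peaks are not replicates and each hairpin has a single library per mark. PCR reads without molecular identifiers are also not independent molecules. Gene and miRNA coordinates, promoters and miRNA sequences are from RefSeq GRCh38.p14. Gene starts came from the strand of 74 promoters, and both gene ends were used for the other 26. Recovery of background, overlap calls and matching were tested on simulated data, and gene counting was not. No step was fitted across features. Python 3.11.15, numpy 2.4.6, pandas 2.3.3 and matplotlib 3.10.9 were used.

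Named are BCR and ABL1, genes marked under a single hairpin, the 5 highest folds at gene starts per mark, the 5 highest backgrounds, the 5 most extreme matched peaks each way, and examples of the gene lists. A few genes counted in the lists are not reported here by name. The members, the lists and their genes were chosen with earlier results of these data known. Alternatives covered the q threshold, the borders, the immunoglobulin lambda stretch, the reference, merging, overlap rules, equal list sizes and gene windows, and 4 more chosen after seeing the data.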

Additional observations from a re-analysis of the deposited data

How the results depend on the processing

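Of 196 recomputed values over 34 results, 132 stayed within the interval of the reported value (for counts of genes, within 1.5 times). Values are given for shControl, then shStau2, H3K4me2 before H3K4me3, where they moved; the cause was not tested. With a −log10 q of 10 or more the H3K4me2 ratios to the rest of chromosome 22 were 4.44 and 4.07 for background, 1.98 and 1.89 for pileup and 1.66 and 1.52 for density, and the shControl fold ratio was 0.798. For H3K4me3 under shStau2 the pileup ratio was 1.96, the fold ratio 0.828, the width ratio 1.11 and the chromosome 9 background ratio 6.14, and shares listed under a single hairpin were 0% and 21.7%. Against the other autosomes background ratios were 3.0, 3.12, 2.7 and 2.79 (chromosome 9: 4.45 and 4.48, and 4.94 and 5.37 against the rest of chromosome 9) and density ratios 2.04, 1.92, 2.66 and 2.84. Without the pseudocount background ratios were 2.96, 2.71, 2.7 and 2.51. Merging peaks within 1 kb gave H3K4me2 densities of 1.57 and 1.45 and reversed its shControl width ratio to 0.947, with 0.992 under shStau2.

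Shares listed under a single hairpin were 23%, 24.9% and, for shControl H3K4me3, 19.7% with 50% reciprocal overlap. They were 14.1% for shStau2 H3K4me3 with equal numbers of peaks. A fold threshold was also set in both lists, raised for shStau2. It gave 13.6% of 337 shControl H3K4me2 peaks and 7.69% of 104 shControl H3K4me3 peaks. For shStau2 H3K4me3 the share was 1.11% of 90, after a cut that took out nearly all such peaks. With a fold enrichment of 5 or more, 1 gene had H3K4me2 under shControl alone.

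Among choices made after seeing the data, background ratios with the inferred 10 kb window in the stretch alone were 3.51, 3.27, 3.19 and 3.0. With the stretch taken from the lower step onward, background ratios were 5.02, 4.47 and, for shStau2 H3K4me3, 4.0, H3K4me2 densities 1.54 and 1.45, and the shStau2 H3K4me2 pileup ratio 2.73. At gene starts the H3K4me2 ratios were 4.87 and 4.07 for background, 1.27 and 1.42 for fold and 1.39 and 1.56 for width, pileup ratios were 4.16, 3.82, 3.11 and 2.25, shStau2 H3K4me3 had a fold ratio of 0.845 and a width ratio of 1.22, and the matched H3K4me2 ratio was 1.25.

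No paired analysis was possible because each hairpin has a single library per mark. A smaller fold can pass the q threshold where depth or local background is higher, and the pileup ceiling bounds the strongest peaks. The part of these in the differences given here was not tested.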

Other observations

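Other places in the lists had backgrounds as high as the stretches. In bins of 0.5 Mb with the listed peaks, chromosome 21 from 8 to 8.5 Mb had the highest median background in each list, from 37.4 to 50.1. Chromosome 1 from 228.5 to 229 Mb had medians of 9.0 and 9.48 for H3K4me2 and 11 and 9.86 for H3K4me3. Chromosome 13 had raised bins in both H3K4me2 lists, with 6.7 and 7.0 from 80.5 Mb, 6.42 and 6.74 from 93 Mb and 7.0 and 7.07 from 107.5 Mb. For H3K4me3, chromosome 8 from 85.5 to 86 Mb had 7.28 and 8.37. These bins were chosen after their values were seen.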
